A study of Arabidopsis thaliana with 12 samples.

Results

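The comparison described here sets the mutant against wild type in Arabidopsis thaliana seedlings that received no added cytokinin. Its members were the 3 arrays titled as mutant and the 3 titled as wild type that were treated with DMSO, 6 of the 12 arrays in the series. Wild type was Col-0, and the mutant is labelled with the insertion lines SALK_098604 and SALK_054752, known as lines of ARR10 and ARR12. Whether both insertions were combined in the same plants, and how many plants were pooled for an array, is not stated. Both groups were grown on upright agar plates with Murashige and Skoog medium for 2 weeks and sprayed for 1 h with 0.02% DMSO, the solvent, and RNA came from the aerial parts. The other 6 arrays came from plants sprayed with 20 µM trans-zeatin (tZ), a cytokinin. They share in the estimate of the spread behind every p-value, give a second look at the same genotypes and enter the average over both sprays. Since the replicates are not described as independent plantings, p-values measure array-to-array spread, which could be technical only.

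Cytokinins promote cell division, shoot growth and chloroplast development. They bind histidine kinase receptors, whose phosphate signal passes through phosphotransfer proteins to response regulators in the nucleus. Type-B response regulators, ARR10 and ARR12 among them, are the transcription factors at the end of this relay, and among their targets are the type-A response regulators, which dampen the signal. Plants make cytokinins of their own, so the solvent-treated seedlings compare both genotypes at their internal hormone level.

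Each Affymetrix ATH1 probe set gives 1 MAS5 signal per array, an intensity on a linear scale, and the number of arrays limits the precision. Differences below are on the log2(signal + 10) scale, mutant minus wild type, which understates the change of dim probe sets. Array medians were 34.2 to 35.7. Arrays of the same genotype correlated at r = 0.985 to 0.989 over the 22746 probe sets tested, and arrays of the other genotype at 0.986 to 0.988, and these ranges overlapped. The highest signal of 27 bacterial control probe sets, 9.57 on these 6 arrays, is called the absent-control maximum, and 28% of probe sets had both group means at or below it. Of 8 RNA quality and spike-in measures, the 5' to 3' ratio of ubiquitin was the 1 whose groups did not overlap, with 0.203 ± 0.00441 in wild type and 0.222 ± 0.00583 in the mutant (SD, n = 3; p = 0.1 by a two-sided exact permutation test, which cannot go lower with 3 against 3, and 0.8 adjusted over the 8). Its part in the differences below was not tested. The actin ratio ran from 0.0409 to 0.0579 on the DMSO arrays and from 0.252 to 0.328 on the tZ arrays, so that treatment and array set cannot be told apart, while each comparison of genotypes lies within 1 set.

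ARR10 and ARR12 themselves could not be read by name, because no probe set was assigned to either in the annotation used here, which left 8730 probe sets without a gene. The mutation was therefore not checked on its own transcripts.

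Without added cytokinin few differences between mutant and wild type shoots reached the adjusted threshold. With 3 arrays a group, small differences can be missed. Of the 22746 probe sets, 3 passed a limma adjusted p of 0.05 (0.0132%), 1 higher (0.0044%) and 2 lower (0.00879%) in the mutant, and none of these 3 has a named gene. Both that were lower read at the level of absent controls on every mutant array. Without a gene name it could not be told whether either of them reads ARR10 or ARR12, the genes of the insertion lines. In bulk tissue fewer cells of a type and less RNA per cell cannot be told apart. Across all probe sets the median difference was -0.01, 98.2% lay within 0.5 in either direction, and 6 differed at least 2-fold, 3 each way. At an unadjusted p of 0.05, 2162 passed (9.50%), 1061 higher (4.66%) and 1101 lower (4.84%). Under tZ 8 passed the adjusted threshold (0.0352%). The 3 arrays of each genotype did not overlap in 2826 probe sets (12.4%), 1365 higher (6.0%) and 1461 lower (6.42%). One wild type array weighed on the count, which went from 3 to 10 without wild type DMSO replicate 1. It was 5 without wild type DMSO replicate 3, without wild type tZ replicate 1 or without wild type tZ replicate 2, and all 3 calls were among those made in every alternative.

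The probe set 245532_at was the 1 that rose. It read 46.3, 49.8 and 63.7 on the wild type arrays and 366, 354 and 359 on the mutant arrays. The genotypes lay far apart, with the lowest mutant array above every wild type array by several times the spread within either group. Its mean was 6.75-fold higher in the mutant (log2 difference 2.56, SE 0.09, 95% interval 2.35 to 2.76, adjusted p = 8.8e-09). Under tZ it read 47.9, 56.5 and 49.6 in wild type and 338, 353 and 351 in the mutant, a log2 difference of 2.55. The higher level was seen with and without the hormone, and the difference between both effects was -0.01 (95% interval -0.30 to 0.27).

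The probe set 264374_at fell. Wild type arrays read 47.6, 58.4 and 54.2 and mutant arrays 1.29, 2.49 and 1.36. Every mutant array was under the absent-control maximum and every wild type array well above it, so the size of the fall is a bound of at least 5.58-fold lower (fitted log2 difference -2.43, SE 0.12, adjusted p = 1.8e-07). Under tZ the mutant stayed at 1.87, 2.00 and 1.36, whereas wild type read 89.4, 84.9 and 88.6. The wild type signal was higher on the tZ arrays and the mutant signal was not, and the genotype difference changed by -0.62 between treatments (unadjusted p = 0.0025, limma adjusted p = 0.43).

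The other that fell was 253500_at. It read 68.2, 53.5 and 65.6 in wild type and 4.52, 7.14 and 1.29 in the mutant, which is at least 6.52-fold lower against the absent-control maximum (fitted log2 difference -2.35, SE 0.16, adjusted p = 7.5e-06). Under tZ the signals were 80.4, 64.1 and 72.1 against 7.70, 7.10 and 8.70. The mutant arrays lay under the absent-control maximum with both sprays, and the groups did not come near each other in either.

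**Figure D1:**
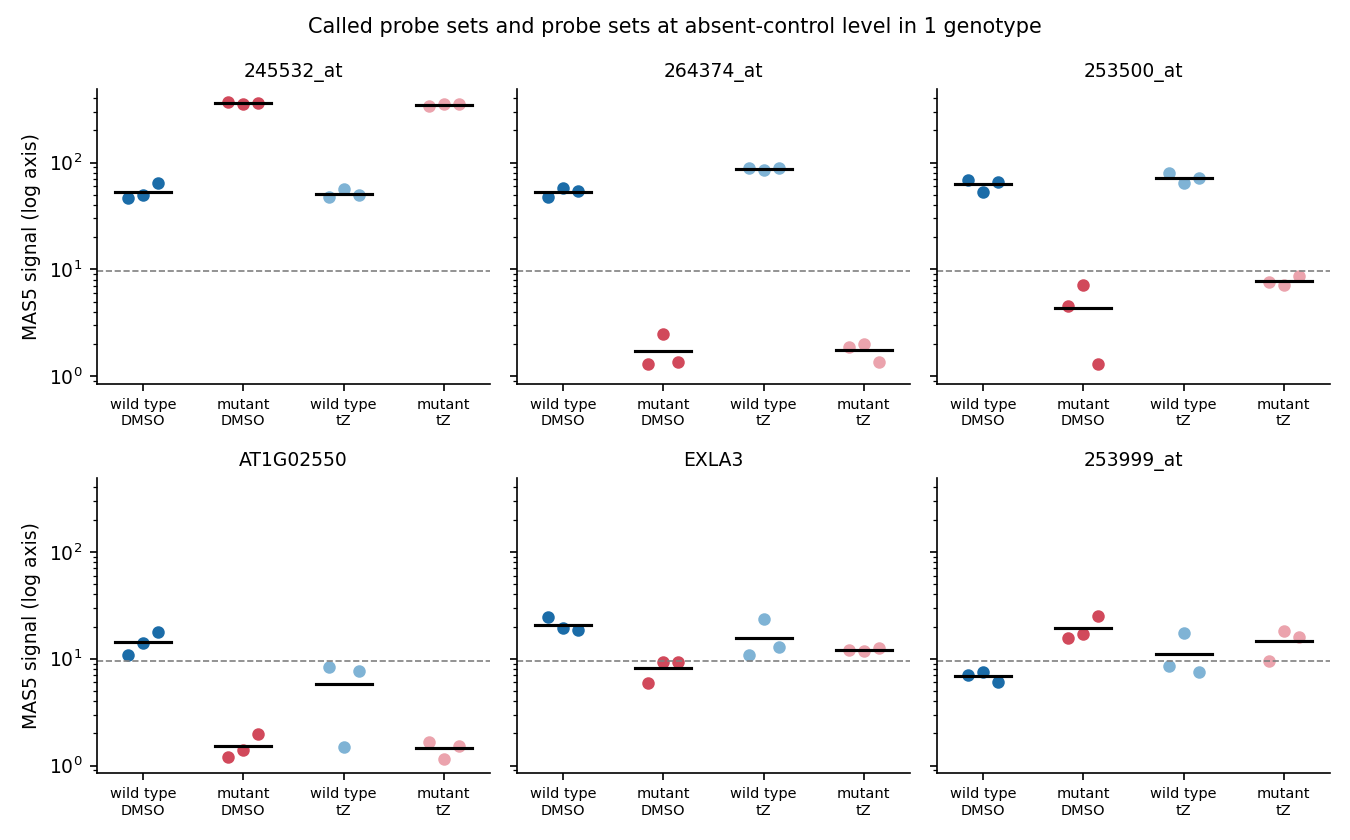
MAS5 signal on a log axis, 1 point per array and a bar for the mean of each of the 4 groups of 3 arrays, for the 3 probe sets that passed and for 3 of the others at absent-control level in 1 genotype; the dashed line is the absent-control maximum of 9.57. In the mutant 245532_at sits near 360 under DMSO against 53.3 in wild type, and 264374_at and 253500_at lie under the dashed line on all 6 mutant arrays.

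A further 4 probe sets were at the absent-control level in 1 genotype by the rule used, which asked that all 3 arrays of one genotype lie above the maximum, all 3 of the other at or below it, and the groups stand at least 2-fold apart. AT1G02550, which encodes a protein of the invertase and pectin methylesterase inhibitor family, read 10.9, 14.1 and 17.7 in wild type and 1.21, 1.40 and 1.98 in the mutant (log2 difference -1.06, SE 0.17, limma adjusted p = 0.064). EXLA3, an expansin-like protein of the cell wall, read 24.4, 19.4 and 18.7 against 5.95, 9.28 and 9.23 (-0.76, SE 0.17, adjusted p = 0.17). Both were dim in wild type, and neither passed. The unnamed 253999_at and 257030_at were at that level in wild type, with 6.90 ± 0.733 and 3.74 ± 0.626 against 19.2 ± 5.13 and 10.2 ± 0.520 in the mutant (SD, n = 3), and did not pass (adjusted p = 0.21 and 0.22). Under tZ the groups of all 4 overlapped. These members are few and set by a limit: 2 probe sets met the rule with a limit of 2 times the maximum and 19 with the 95th percentile of the controls.

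Just outside the threshold stood 18 probe sets with adjusted p between 0.064 and 0.068, after which the next was 0.11. Of these 14 read higher in the mutant and 4 lower, with absolute log2 differences from 0.36 to 1.31, and in all 18 the groups did not overlap. Of the 18, 7 named 1 gene. Among them petL, a small subunit of the plastid cytochrome b6f complex, which links both photosystems, read 240, 214 and 195 in wild type and 321, 319 and 303 in the mutant (log2 difference 0.52, SE 0.08, limma adjusted p = 0.064). MSRB5, a methionine sulfoxide reductase that repairs oxidised protein, read 200, 190 and 189 against 244, 290 and 284 (0.47, SE 0.08, adjusted p = 0.068). AT5G14105 read 67.1, 73.0 and 74.8 against 50.5, 50.4 and 46.0 (-0.47, SE 0.08, adjusted p = 0.067). These 3 differences were small next to the calls but steady between arrays. Leaving out the dimmest 40% of probe sets gave 18 calls among 13647 (0.132%), 14 higher and 4 lower. This both lightens the correction for multiple tests and refits the moderated variances, and the part of each was not tested. Of these 15 were additional to the 3, 13 of them from the group just outside, and the 7 with 1 named gene were petL, MSRB5, AT5G14105, AT3G28220, AT3G28270, AT4G29700 and AT1G52000.

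The unnamed 265121_at had the next smallest p after the calls. It read 349, 320 and 308 in wild type and 465, 510 and 515 in the mutant (log2 difference 0.60, SE 0.09, limma adjusted p = 0.064), and the 2 groups were about equal under tZ (266 ± 37.1 and 252 ± 17.2, SD, n = 3). Across the 18 probe sets just outside, 13 kept their sign under tZ, against 51.3% of all probe sets, and 0 passed there. In 5 the groups did not overlap in the same direction there, against 212 of the 2826 without overlap under DMSO. The 18 were ranked by p-values whose spread includes the tZ arrays. Their median absolute difference was 0.58 under DMSO, and their median under tZ, turned to the DMSO sign, was 0.08.

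Among the 13513 probe sets that name 1 gene, 1212 had groups that did not overlap and a higher mean above the absent-control maximum. Of these 568 were higher and 644 lower in the mutant. Over all probe sets, with no limit on signal, groups did not overlap in 12.4%, 6.0% higher and 6.42% lower. None of these passed in the main comparison, so the largest are given as values. AT3G28220, a TRAF-like protein, had the largest positive difference. It read 197, 138 and 107 in wild type and 398, 355 and 358 in the mutant, a mean 2.51-fold higher (log2 difference 1.31, SE 0.22, 95% interval 0.84 to 1.78, limma adjusted p = 0.067). Its wild type arrays spread widely while the mutant arrays lay close together, and it passed without wild type DMSO replicate 1, without wild type tZ replicate 1 or without wild type tZ replicate 2. AT3G28270, of the At14a-like family and near AT3G28220 on the same chromosome, read 38.9, 40.8 and 32.3 against 64.3, 66.1 and 84.6 (0.78, SE 0.15, adjusted p = 0.11).

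Other positive differences were smaller. AT1G52000, a jacalin-type lectin, which binds sugars, read 66.2, 55.5 and 59.2 in wild type and 134, 99.5 and 143 in the mutant (0.93, SE 0.18, adjusted p = 0.12). BGLU28, a beta-glucosidase, read 54.5, 36.4 and 61.5 against 117, 95.4 and 91.1 (0.88, SE 0.18, adjusted p = 0.12). In both the lowest mutant array was well above the highest wild type array. AT1G72920, a protein with the TIR domain of plant immune receptors, read 21.4, 21.9 and 26.6 against 30.2, 65.3 and 47.3 (0.75, SE 0.20, adjusted p = 0.25), with the mutant arrays far from each other. Its groups did not overlap under tZ either, at 10.5 ± 2.68 and 17.4 ± 3.54 (SD, n = 3).

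The remaining large positive differences ran from 0.74 to 0.94 with adjusted p of 0.067 to 0.30. AT4G29700, of the nucleotide pyrophosphatase family, read 38.6, 27.9 and 27.7 against 67.2, 49.0 and 61.6, and it passed without wild type DMSO replicate 1. AT5G52760, of a copper transport family, read 37.6 ± 5.07 against 73.5 ± 14.8 (SD, n = 3). The receptor-like kinase gene AT3G46370, the glycosyltransferase gene AT2G16890 and the pseudogene AT2G15750 had wild type means of 6.67, 10.1 and 1.71. AT3G46370 and AT2G15750 thus lay under the absent-control maximum of 9.57 in wild type, so the size of their rise cannot be read, and AT2G16890 lay near it. In the mutant the means of these genes were 18.3, 23.0 and 12.7. AT2G16890 stood the other way under tZ, where wild type read 29.2 ± 6.20 and the mutant 19.9 ± 3.65.

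The 10 largest negative differences among named genes were all of dim probe sets. AT1G02550 and EXLA3, described above, were 2 of them, and wild type means of the 10 ran from 9.62 to 20.8, so each lay near the absent-control maximum. Those of AT1G37160, AT2G04820, AT2G05200, AT2G38520 and AT5G44880, all annotated as pseudogenes, had adjusted p of 0.12 to 0.37. AT1G37160, for example, read 10.2, 12.1 and 7.41 in wild type and 1.01, 1.21 and 1.63 in the mutant (-0.81, SE 0.16, adjusted p = 0.12), and 2.81 ± 2.19 against 3.24 ± 2.49 under tZ. AT3G06710, AT4G25070 and AT1G43980 had differences of -0.82, -0.76 and -0.72 under DMSO and 0.16, 0.13 and 0.06 under tZ. The 10 largest positive differences included probe sets with clear signal in both genotypes, and these 10 negative ones did not.

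**Figure D2:**
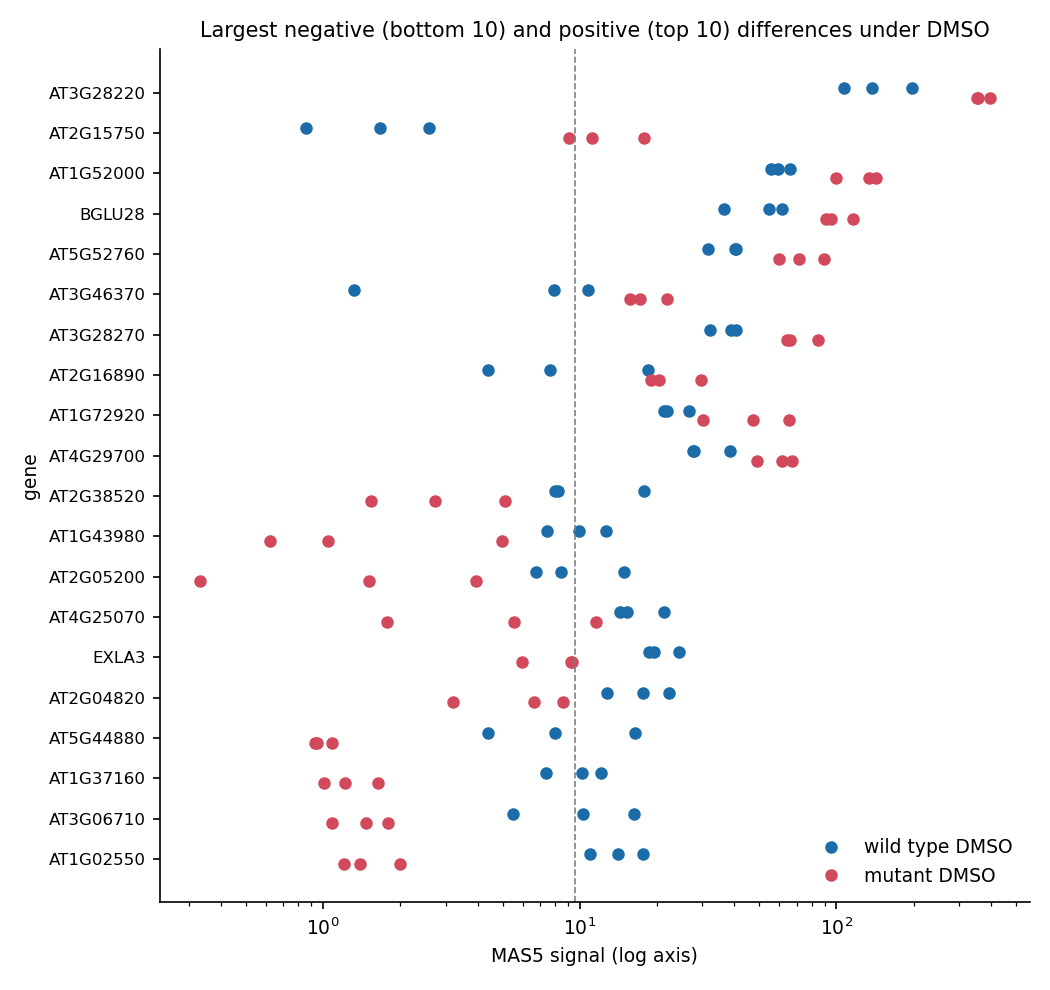
MAS5 signal on a log axis on each of the 6 DMSO arrays for the 10 largest positive and 10 largest negative log2 differences among probe sets naming 1 gene; blue points are wild type, red points the mutant, and the dashed line is the absent-control maximum of 9.57. The lower 10 genes lie around or under that line, and AT3G28220 and AT1G52000 lie far above it with separate groups.

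The 6 arrays under tZ hold the same genotypes and none of the DMSO arrays, and so give a second look at each difference. Over all 22746 probe sets, which are not independent, the genotype differences under DMSO and under tZ correlated at r = 0.07 (Spearman's rho 0.04), as a description. Of the 2162 at an unadjusted p of 0.05 under DMSO, 1147 had the same sign under tZ, which is 53.1%, against 51.3% of all probe sets. Groups that did not overlap in both treatments were found in 212 probe sets in the same direction, 95 higher and 117 lower, and in 151 in opposite directions. The sign under tZ thus followed that under DMSO about as often as among all probe sets, whereas the 3 calls had separate groups in the same direction under both. The test of the difference between both treatments called 0 probe sets by limma (1598 at an unadjusted p of 0.05), so no single change between treatments passed.

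**Figure D3:**
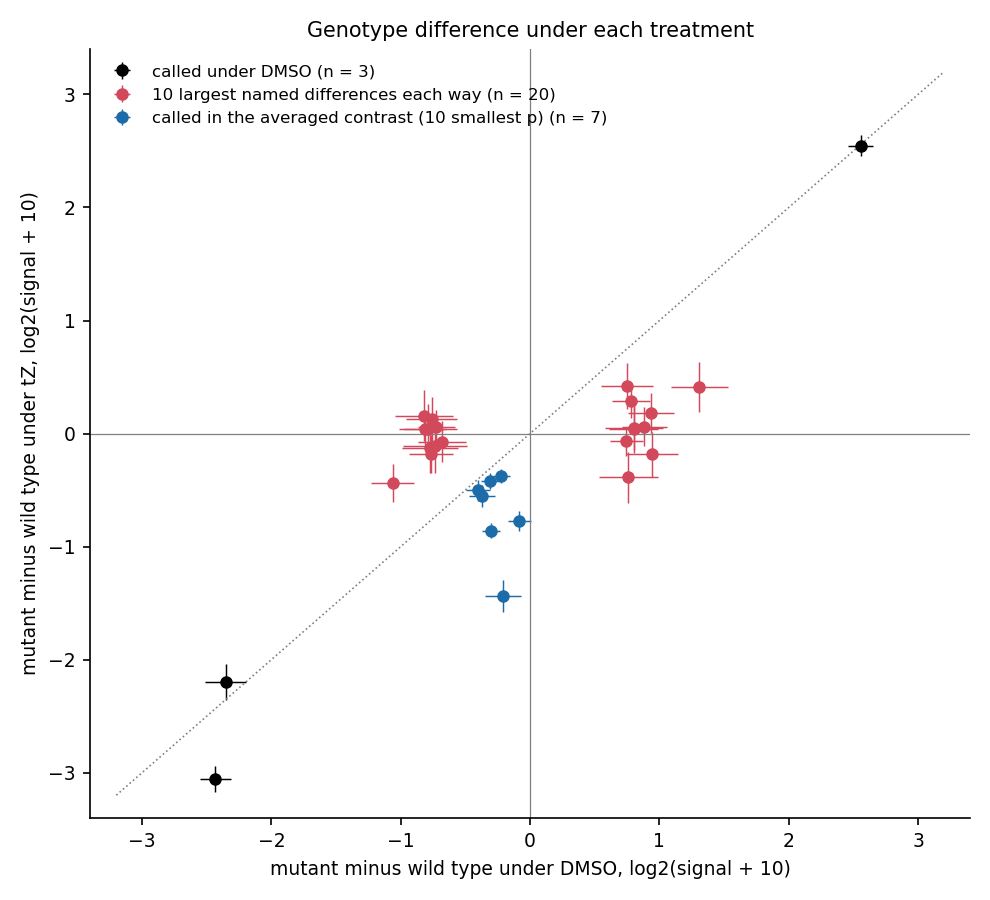
Log2 difference of mutant minus wild type under DMSO (horizontal) and under tZ (vertical), with bars of 1 SE, for the 3 calls (black), the 20 largest named differences (red) and the 7 further probe sets among the 10 smallest p of the average (blue); the dotted line marks equal differences. The black points have the same sign on both axes, with 264374_at at -2.43 and -3.06, and the red points lie between -0.44 and 0.42 on the vertical axis.

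Averaging the genotype difference over both treatments uses 6 arrays a genotype, contains the DMSO arrays and is not independent of the comparison above. It called 13 probe sets (0.0572%), 11 lower and 2 higher in the mutant, 3 of them the calls under DMSO. The count is sensitive to single arrays. It was 5 without mutant tZ replicate 1 or 2 or without mutant DMSO replicate 2 or 3, 6 without wild type tZ replicate 3, 7 without wild type tZ replicate 1 or wild type DMSO replicate 2, and 8 without mutant tZ replicate 3. Of the 13, 5 named 1 gene. AT1G30820, a CTP synthase, which makes a pyrimidine nucleotide for nucleic acid and lipid synthesis, read 142, 169 and 182 in wild type and 129, 118 and 117 in the mutant under DMSO (-0.40, SE 0.09), with -0.50 under tZ (averaged limma adjusted p = 0.029). AT1G69030 read 103, 101 and 103 against 81.8, 77.8 and 81.9 (-0.31, SE 0.07), with -0.42 under tZ (averaged adjusted p = 0.020).

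In both of these the groups did not overlap under either spray. AT1G02550 was called too (averaged -0.75, adjusted p = 0.041), although its wild type signal under tZ, 5.82 ± 3.77, was below the absent-control maximum. For ARR15 and UGT76C2 the average rested on the tZ arrays, since their differences under DMSO were -0.21 and -0.08 with groups that overlapped. Besides the calls under DMSO, the unnamed probe sets among the 10 smallest p had smaller differences than those calls under both sprays. The first, 253245_at, read 251, 257 and 252 in wild type and 200, 220 and 191 in the mutant under DMSO (-0.30, SE 0.07), with -0.86 under tZ. The other two, 257516_at and 263236_at, differed by -0.37 and -0.22 under DMSO and by -0.55 and -0.38 under tZ, again with no overlap in either.

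Of 157 genes on 17 lists of cytokinin and other pathways, 34 were measured by name and 0 passed. An unadjusted p under 0.05 was found for 5 of the 34, against 9.50% of all probe sets, with 2 in the anthocyanin list and 1 each in those of touch and stress, glutaredoxins and root markers. None was in the lists of cytokinin response, breakdown or regulators. The lists of receptors and phosphotransfer proteins and of cytokinin synthesis had no measured member. Both measured type-A regulators overlapped between genotypes. ARR15 read 16, 18.9 and 9.10 in wild type and 8.91, 13.7 and 10.9 in the mutant (-0.21, SE 0.14, limma adjusted p = 0.69), with 1 array of each genotype under the absent-control maximum. ARR16 read 87.0, 85.3 and 84.3 against 99.8, 91.9 and 86.3 (0.10, 95% interval -0.06 to 0.27, adjusted p = 0.73). On the tZ arrays the differences of ARR15 and ARR16 were -1.44 and -0.75.

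Among genes that inactivate cytokinin, UGT76C1 and UGT76C2, which attach glucose to ring nitrogens of the hormone, differed by -0.05 (95% interval -0.30 to 0.20) and -0.08 (-0.27 to 0.11). UGT76C2 read 43.0, 47.9 and 46.5 in wild type and 47.6, 40.1 and 40.4 in the mutant. Of the other cytokinin-induced genes, AT2G40230, TINY2 (a transcription factor) and GRXS6 (a glutaredoxin) differed by 0.08, 0.00 and -0.06. The median over this list's 4 members, UGT76C2 included, was -0.03, next to -0.01 for all probe sets. The type-B regulators ARR18 and ARR19 had means under the absent-control maximum in both genotypes, 7.26 and 3.23, and of 2.32 and 2.92, so nothing can be read from them.

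**Figure D4:**
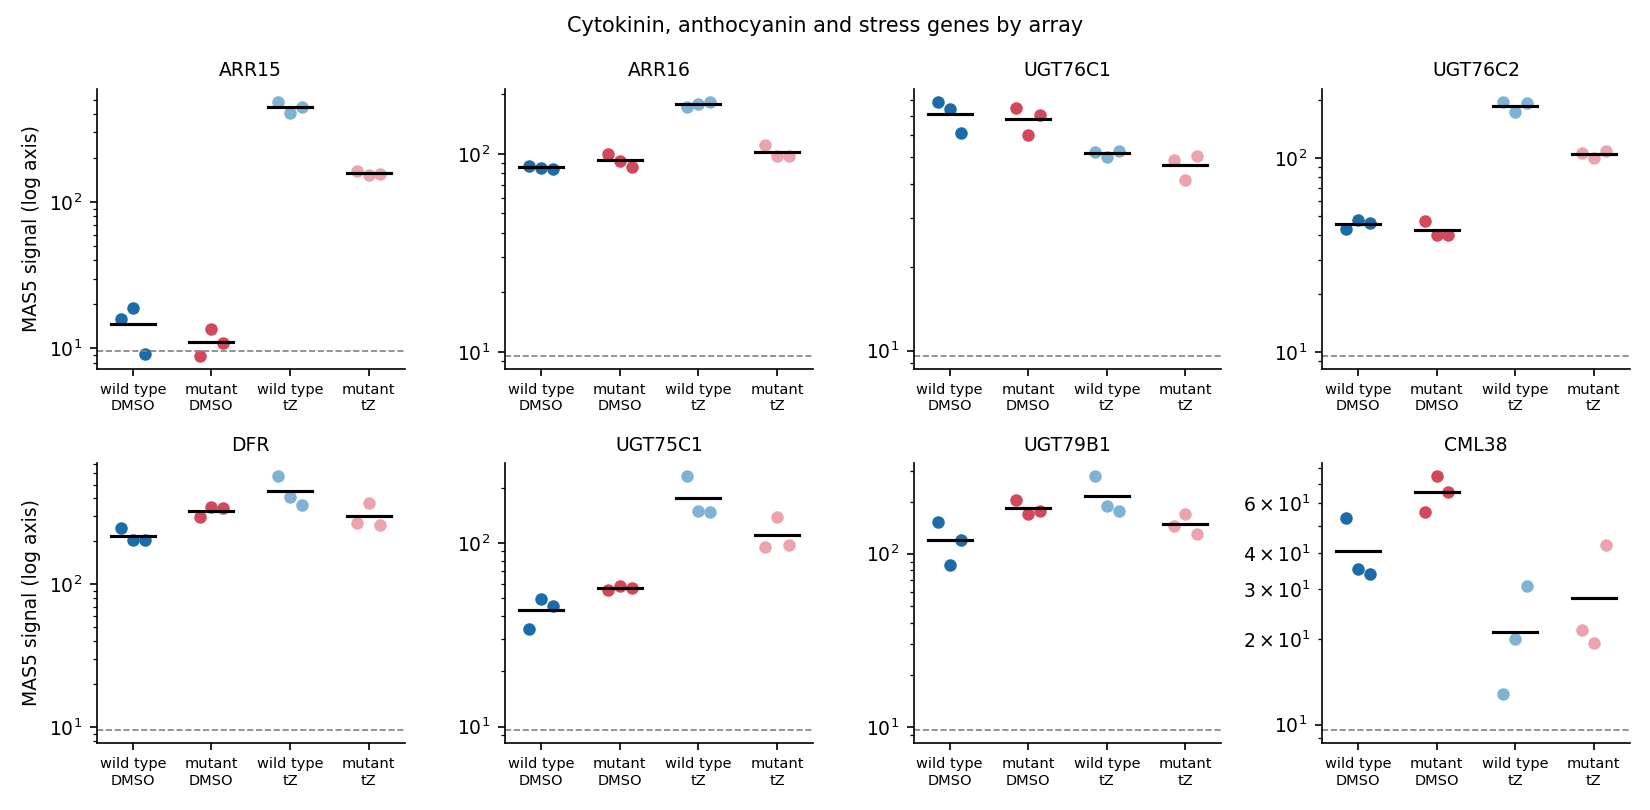
MAS5 signal on a log axis, 1 point per array and a bar for the group mean, for cytokinin, anthocyanin and stress genes in the 4 groups of 3 arrays; the dashed line is the absent-control maximum of 9.57. ARR15, ARR16 and UGT76C2 overlap between genotypes under DMSO and separate under tZ, and DFR, UGT75C1 and UGT79B1 are higher in the mutant under DMSO and have lower means in it under tZ.

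Anthocyanin genes formed the list with the largest median. The pathway makes the red and purple pigments of stressed shoots, and 3 of its 11 listed genes were measured. DFR, which reduces dihydroflavonols, read 248, 204 and 204 in wild type and 295, 348 and 343 in the mutant (0.57, SE 0.16, limma adjusted p = 0.27). UGT79B1, which adds xylose to anthocyanins, read 153, 85.9 and 119 against 205, 169 and 177 (0.61, SE 0.19, adjusted p = 0.32). UGT75C1, an anthocyanin glucosyltransferase, read 34.1, 49.8 and 45.7 against 55.6, 58.0 and 56.8 (0.34, SE 0.17, adjusted p = 0.57). All 3 read higher on every mutant array than on any wild type array, where 6.0% of all probe sets did so, and none passed. Their median was 0.57 under DMSO and -0.56 under tZ, and the changes between treatments of DFR, UGT79B1 and UGT75C1 were -1.13, -1.10 and -0.96, which did not pass (adjusted p = 0.28, 0.43 and 0.43).

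Of 7 listed genes of touch and stress responses 2 were measured. CML38, a calmodulin-like protein induced by touch and wounding, read 53.4, 35.1 and 33.7 in wild type and 55.7, 74.8 and 65.8 in the mutant (0.59, SE 0.24, limma adjusted p = 0.48). ZAT10, a zinc-finger repressor of stress responses, read 38.1, 31.3 and 26.9 against 40.4, 40.3 and 45.2 (0.31, SE 0.19, adjusted p = 0.64). Neither passed. Both read higher on every mutant array than on any wild type array, as 6.0% of all probe sets did. The defensin genes PDF1.2a and PDF1.2b, markers of jasmonate and ethylene defence, differed by -0.21 and -0.15 with wide intervals (-1.72 to 1.30 for PDF1.2a).

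CC-type glutaredoxins are small redox proteins of land plants. All 5 measured of 6 listed had negative differences, with a median of -0.31, and none passed. Of all probe sets 47.7% had positive differences. GRXS6, at -0.06, ran from -0.35 to 0.26 with 1 array left out. GRXS3 read 11.0, 10.3 and 13.3 in wild type and 0.37, 9.19 and 7.28 in the mutant (-0.51, SE 0.22, limma adjusted p = 0.50). It was the 1 member whose groups did not overlap, where 6.42% of all probe sets were lower without overlap. GRXS4 read 23.7, 33.8 and 39.7 against 23.8, 22.9 and 18.5 (-0.41, SE 0.31). These genes are close paralogs whose probe sets may share signal, and 2 of the 5 had both means under the absent-control maximum. Their median under tZ was -0.08.

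The remaining lists held 1 to 4 measured genes and no call. Of 4 auxin response genes, IAA30 differed by 0.23 and IAA29 and GH3.5 by -0.42 and -0.24. The clock gene GI read 96.0, 150 and 130 against 103, 79.7 and 106 (-0.34, SE 0.18, limma adjusted p = 0.58). The meristem peptide gene CLV3 was under the absent-control maximum in both genotypes, and the iron-deficiency peptide gene IMA1 differed by 0.09. LHCB4.1, a light-harvesting protein of photosystem II, and PORB, which makes chlorophyllide in the light, differed by -0.09 (95% interval -0.27 to 0.09) and -0.13 (-0.34 to 0.07). FAMA, a guard-cell regulator and the 1 measured shoot cell type marker, differed by -0.15 (SE 0.13). All 3 read above the absent-control maximum on every DMSO array, and their groups overlapped.

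Plastid-encoded genes were mostly higher in the mutant, a group noticed after the values had been seen and described here without a test. Of 69 measured, 58 read higher, where 47.7% of all probe sets did so, and the median difference was 0.17. In 18 the mutant arrays all lay above the wild type arrays, in 1 they all lay below, where 6.0% and 6.42% of all probe sets did so, and 0 passed the adjusted threshold. The median under tZ was 0.02, with 39 of 69 higher and 2 above wild type on every mutant array (5.71% of all probe sets). Mutant tZ replicate 1 stood apart in some of these genes. The mutant tZ arrays read 400, 118 and 102 for ndhG and 310, 69.1 and 73.3 for psbN. That array also enters the spread behind the DMSO p-values of these genes, and its part in the plastid values was not tested. The medians of the 69 per array, as log2 distance from the wild type mean, were -0.05, -0.02 and 0.08 in wild type and 0.13, 0.20 and 0.15 in the mutant, so that the groups did not overlap, with wild type replicate 3 the nearest to the mutant arrays. Summed signals overlapped, at 92790, 96695 and 107233 in wild type and 103700, 106445 and 105406 in the mutant. Leaving out 1 DMSO array at a time gave medians from 0.13 to 0.19.

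By complex, the 5 genes of photosystem I, all higher, had a median of 0.31, the 6 of the ATP synthase 0.36 and the 4 of the plastid RNA polymerase 0.32. The medians were 0.17 for the 15 ribosomal protein genes and for the 15 of photosystem II, 0.15 for the 6 of cytochrome b6f and 0.11 for the 10 of the NDH complex. The RNA polymerase genes did not move as one. Its subunit rpoC2 read 154, 174 and 175 in wild type and 219, 231 and 204 in the mutant (0.36, SE 0.08, limma adjusted p = 0.17). Subunit rpoA read 2800, 3469 and 3495 against 2706, 2677 and 2600 (-0.28, SE 0.09, adjusted p = 0.36) and was the 1 plastid gene lower on every mutant array.

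Other members showed how the spread between arrays differed. The ribosomal protein gene rps2 read 820, 767 and 880 against 1195, 1213 and 1142 (0.52, SE 0.12, limma adjusted p = 0.17), with close arrays in both groups. The Rubisco large subunit gene rbcL, whose product fixes carbon dioxide, read 190, 217 and 368 against 361, 306 and 536 (0.63, SE 0.21, adjusted p = 0.38) and overlapped. The photosystem I genes psaI and psaA read 1086 ± 43.8 against 1282 ± 16.3 and 334 ± 80.6 against 459 ± 135 (SD, n = 3), separate in the first and overlapping in the second. The photosystem II genes psbH and psbA differed by 0.36 and 0.18, ndhJ and ndhG of the NDH complex by 0.30 and 0.11, and atpI of the ATP synthase by 0.57. The ubiquitin 5' to 3' ratio given above also differed without overlap between these arrays, and its part in the plastid values was not tested.

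**Figure D5:**
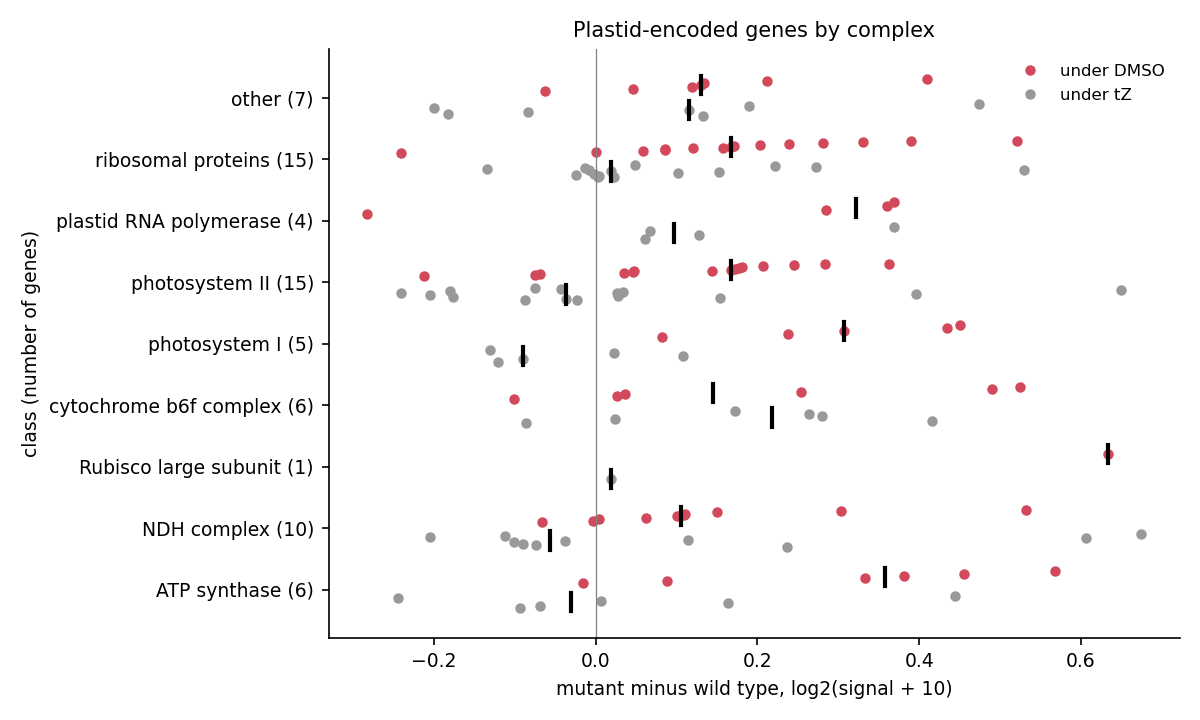
Log2 difference of mutant minus wild type, on log2(signal + 10), for each of 69 plastid-encoded genes by complex, under DMSO (red) and under tZ (grey), with a black bar at the median of each class. Under DMSO 58 of the 69 red points lie right of 0, and under tZ 39 of the 69 grey points do.

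Root markers were read as a check for other tissue. Of 4 measured, 3 had both means under the absent-control maximum, EXPA7 and PRX57 among them. PYK10, a beta-glucosidase abundant in roots and in the endoplasmic reticulum bodies of seedlings, read 639, 1101 and 771 in wild type and 899, 1218 and 1271 in the mutant (0.45, SE 0.19, limma adjusted p = 0.48). Its groups overlapped. The summed signal of the 4 ranged from 650 to 1111 in wild type and from 907 to 1277 in the mutant, nearly all of it PYK10.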

How the data were processed

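MAS5 signals of 12 ATH1 arrays were deposited as linear intensity values, per the submitters' processing notes, which are silent on the version. Every array had a 2% trimmed mean of 100, and nothing was rescaled. Genes came from the platform annotation supplied with the data: of 22746 probe sets tested, without 64 controls, 13513 named 1 gene, 503 several and 8730 none, and 13436 matched a TAIR10.1 locus table. That table served for names and plastid encoding only, since the build behind the array design is unknown.

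The 4 group means were fitted to log2(signal + 10) over all 12 arrays with limma 3.58.1 (R 4.3.3), using moderated variances with a trend on signal. Tests were two-sided with Benjamini-Hochberg adjustment over all probe sets at 0.05. The fit was tested on simulated data. Control ratios were compared by exact permutation with scipy 1.17.1.

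The members and lists were chosen with earlier results of these data known. Probe sets were named if they passed, had 1 of the 5 smallest p, were 1 of the 10 largest differences each way among named genes without overlap and above the absent-control maximum, met the absent-control rule, were list members (all of the cytokinin lists, up to 3 by p of others) or had 1 of the 10 smallest p among averaged calls. Named outside this rule, after their values were seen, were the plastid genes, MSRB5, BGLU33 and AT5G14105. Alternatives covered the pseudocount (1 or 50), scaling (quantile, common median), the dimmest 40% left out, a replicate block, array weights, no trend, only the 6 arrays compared, an adjusted p of 0.01 and each array left out. MAS5 detection calls were not used here.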

Additional observations from a re-analysis of the deposited data

How the results depend on the processing

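The 3 calls under DMSO passed in all 21 alternatives. The count of 3 was 18 without the dimmest 40% of probe sets, 4 after quantile normalization and 3 to 10 with 1 array left out. Under tZ the count of 8 was 16 without the dimmest, 22 with array weights and 7 to 11 with 1 array left out. The averaged count of 13 was 26 without the dimmest, 5 with no variance trend, 5 at an adjusted p of 0.01 and 5 to 15 with 1 array left out. The interaction count of 0 was 1 with a pseudocount of 1, 2 with a pseudocount of 50, 1 after quantile normalization, 1 without the dimmest and 0 to 1 with 1 array left out. The absent-control rule found 6 probe sets, 2 with the doubled limit and 19 with the 95th percentile. Leaving out probe sets or arrays also refits the moderated variances, and the cause of the changes in count was not tested.

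Replicate numbers did not pair the DMSO samples: deviations from the group means of same-numbered arrays correlated at -0.01 to 0.03, and 1 of 3 wild type arrays correlated best with its own number. With replicate number as a block the counts were 4 under DMSO, 8 under tZ, 6 averaged and 0 for the interaction.

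Of 77 named probe sets 68 kept their direction in every alternative, and 9, none of them called, changed sign. TINY2, at -0.00, read 0.00523 with a pseudocount of 1, 0.00922 after quantile normalization and 0.00202 with a common median. With 1 array left out the log2 differences ranged from -0.13 to 0.075 for TINY2, -0.048 to 0.27 for ndhG, -0.15 to 0.033 for UGT76C1, -0.35 to 0.26 for GRXS6, -0.40 to 0.21 for PDF1.2b, -0.13 to 0.20 for ARR19, -0.49 to 0.025 for EXPA7, -0.060 to 0.26 for IMA1 and -0.10 to 0.28 for AT2G40230. The plastid median, whose alternatives were chosen after seeing the data, ran from 0.13 to 0.19.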

Other observations

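Families of enzymes that act on sugars and small molecules were looked at by symbol after the values had been seen, and are given as values with no test. Of 20 beta-glucosidase genes with a BGLU symbol, 14 read higher in the mutant under DMSO, with a median difference of 0.09, and 4 had all mutant arrays above all wild type arrays, against 1 the other way. Of all probe sets 47.7% read higher, 6.0% had all mutant arrays above and 6.42% had all below. Among them BGLU33 read 162, 165 and 174 in wild type and 212, 216 and 194 in the mutant (0.30, SE 0.06, limma adjusted p = 0.15), and its groups did not overlap under tZ either, at means of 185 and 216 (n = 3). The 20 probe sets summed to 2169, 2130 and 2295 in wild type and to 2396, 2482 and 2353 in the mutant, without overlap.

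The 47 glycosyltransferase genes with a UGT symbol had a median of 0.02, 28 of them higher and 19 lower. Their summed signal was 3111, 3156 and 3195 in wild type and 3537, 3633 and 3687 in the mutant, without overlap, while 6 members were higher on every mutant array and 4 lower. Sums of linear signals are weighted to the brightest members, whose part in the family sums was not tested. The 13 glutathione transferase genes with a GST symbol summed to 1960 to 2033 in wild type and 2088 to 2243 in the mutant, with 7 of 13 higher. For 26 cytochrome P450 genes with a CYP symbol the median was 0.05, with 18 higher, 2 of these without overlap. Their summed signals overlapped, at 1073, 1145 and 1164 in wild type and 1159, 1196 and 1383 in the mutant. Summed signals also overlapped for 14 genes with an EXP symbol, looked at in the same way. They were 253, 267 and 357 in wild type and 346, 304 and 279 in the mutant. None of these members passed under DMSO. Over all probe sets 47.7% read higher, and the groups did not overlap in 12.4%, 6.0% higher and 6.42% lower.

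The 923 annotated pseudogenes had a median difference of -0.01, with 36 higher and 48 lower without overlap, which is 9.10% of them.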
